A study of Mus musculus with 178 samples.

Results

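Blood RNA of 14 mice whose tumors responded to an antibody against PD-1 was compared between Day 17, on treatment, and Day 4, before it. The 14 mice gave 28 of the 178 bulk RNA-seq libraries of the series, which come from 45 mice, and were chosen by their labels as responders with a library on both days, joined by the mouse tag. Mice are named here by the end of a library label, such as D17_7208. The responder of library D4_7206 has no Day 17 library analysed here. Mouse D17_7203 was left out, because its Day 17 library is labelled responder and its other libraries are labelled non-responder. All mice were C57BL/6J mice of 6 to 8 weeks that carried 4MOSC1 cells, a carcinogen-induced oral squamous carcinoma line, in the tongue or the buccal mucosa. All were given the antibody, clone RMP1-14, by intraperitoneal injection after the Day 4 bleed, and response was judged by RECIST, a rule on the change of tumor size. The labels do not say which site a mouse was injected in, and no mouse went without the antibody, so the antibody, the tumor, repeated bleeding and time itself cannot be told apart. The comparison used beside it was the same change in 28 non-responder mice.

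PD-1 is an inhibitory receptor of activated T and B cells, and antibodies that block it release lymphocytes from that inhibition. In blood, naive B cells carry IgM and IgD. After activation a B cell can switch its heavy chain to an IgG, IgA or IgE class, and a cell that becomes a plasma cell secretes antibody joined by the J chain when it is IgA or IgM. Naive T cells are marked by the lymph node homing receptor CCR7, and effector T cells by granzymes and chemokine receptors. Neutrophils and monocytes are the phagocytes of blood, and red cells and platelets carry RNA of their own. In RNA from whole blood, fewer cells of a type and less RNA per cell cannot be told apart.

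Total counts per library ran from 43819377 to 63000426 on Day 4 (median 50481866) and from 26058944 to 59194844 on Day 17 (median 47723635). Mice D17_311 and D17_315 had the lowest Day 17 totals. Haemoglobin genes took 75.4% to 87.6% of the counts on Day 4 and 73.0% to 87.3% on Day 17. Outside haemoglobin, 5607782 to 14234324 counts were left on Day 4 and 4535309 to 12549582 on Day 17. Markers of T cells, B cells, natural killer cells, monocytes, neutrophils, eosinophils and platelets were counted in all 28 libraries, as whole blood should give. Of the listed markers of immature neutrophils, Elane and Mpo had at most 2 counts and were counted in 4 libraries each. Camp (1 to 30 counts) and Ltf (5 to 273 counts) were counted in all 28. Alb, a marker of liver, was counted in 1 library.

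The libraries stood apart by the series of the mouse tags. Of the 14 mice, 10 have tags of 4 digits and 4 have tags of 3 digits (D17_311, D17_315, D17_322 and D17_327), and the labels do not say what the series means. Plet1, a surface protein of placental and epithelial cells, had 0 counts in 9 of the 10 four-digit Day 4 libraries and 1 count in the other. On Day 17 it had 70 to 492 counts (median 188) in the same 10 mice. In the 3-digit mice it already had 46 to 83 counts on Day 4 and then 21 to 128 on Day 17. Muc4, a membrane mucin of epithelia, behaved alike, with 0 counts in 9 of 10 four-digit libraries of Day 4, 53 to 371 counts on Day 17, and 36 to 98 and 8 to 83 counts in the 3-digit mice. Krt13, a keratin of the oral lining, and Elf3, an epithelial transcription factor, had 0 counts in all 10 four-digit Day 4 libraries and at least 33 and 35 counts on Day 17. In non-responders with 4-digit tags, Plet1, Muc4, Krt13 and Elf3 were at 0 counts in all 7 Day 4 libraries too, the Day 4 library of mouse D17_7203 included. These 4 genes were chosen after their values were seen.

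Across the listed keratins and other epithelial genes, 14 of 17 had a count in some library, with Krtdap, Sprr1b and Sprr3 at 0 throughout. Of these, Krt6a, Krt13 and Krt15 had 0 counts in the 4-digit mice on Day 4 and 266, 903 and 108 in all on Day 17. Sfn gave most of the counts, with 2923 in the 4-digit mice on Day 4 and 1854 on Day 17. The summed level of the list, scaled to CPM outside haemoglobin, was 25.4 to 47.2 on Day 4 and 36.4 to 77.5 on Day 17 in the 4-digit mice, and 42.3 to 65.4 and 35.1 to 52.4 in the 3-digit mice. Whether RNA of epithelial cells had a part in any result below was not tested. Values in both series are given for the results that differed most between them.

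Of 11850 genes tested with edgeR's quasi-likelihood test, with the mouse as a block, 739 rose (6.24%) and 964 fell (8.14%) at an adjusted p of at most 0.05, which is 14.4% of all. The p-values measure the spread between these mice. Most changes were small. The median size among the 1703 called genes was 0.38 on the log2 scale, 274 rose and 65 fell by at least 1.5-fold, and the median change of all genes tested was 0.03. Of the genes that fell, 159 were lower in all 14 mice, and of the genes that rose, 34 were higher in all 14. The number of calls went down to 937 without mouse D17_7208 and to 984 without mouse D17_7210. The 1688 and 1689 called genes tested in those fits all kept their direction.

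**Figure D1:**
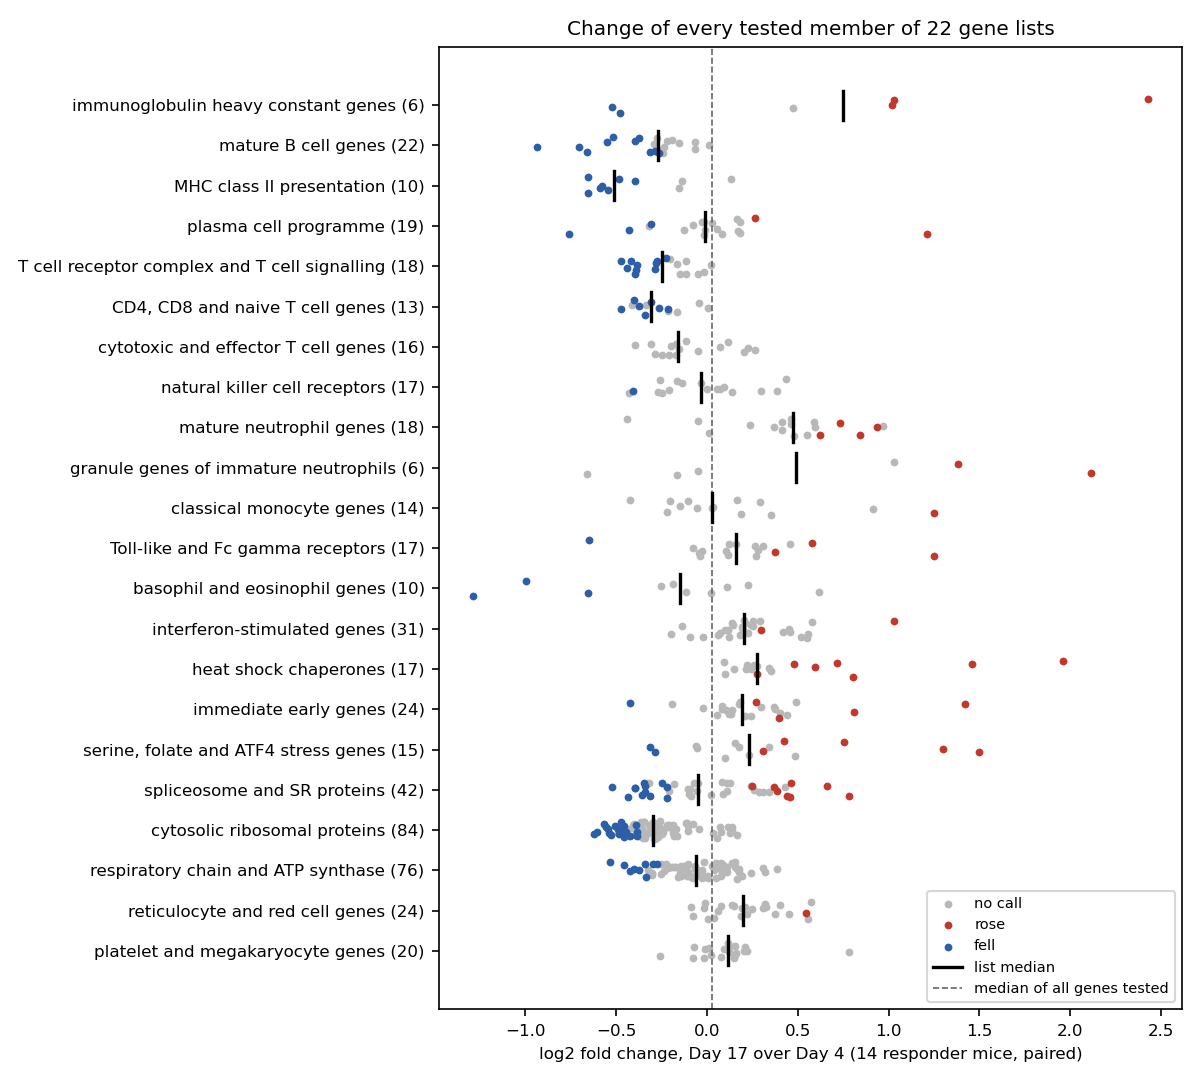
Change from Day 4 to Day 17 of every tested member of 22 gene lists in the 14 responder mice, as log2 fold change on the horizontal axis. Points are genes, coloured by whether they rose, fell or were not called, short bars are list medians and the dashed line is the median of all genes at 0.03. The B cell, MHC class II and T cell lists lie left of the line, with medians of -0.27, -0.51 and -0.25, and the neutrophil list lies right of it with a median of 0.47.

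The clearest rise was in antibody class. Ighg1 (chr12:113325240-113330523 of GRCm38, minus strand), the constant region of IgG1, was higher on Day 17 in all 14 mice and had the smallest p of all genes. It ran from 0.056 to 0.583 CPM (counts-per-million of the library size, scaled by edgeR's TMM factors) on Day 4, with a median of 0.18, and from 0.557 to 2.88 on Day 17, with a median of 0.908. The lowest Day 17 library lay just under the highest Day 4 library and the other Day 17 libraries lay above it. The log2 change was 2.43 ± 0.27 (SE, n = 14 mice, adjusted p = 0.00087), or 5.39-fold, on 1 to 51 counts per library on Day 4 and 17 to 169 on Day 17. It was 2.37 in the 4-digit mice and 2.58 in the 3-digit mice, so this rise had nearly the same size in both tag series.

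Igha, the constant region of IgA, ran from 2.42 to 14.8 CPM on Day 4 (median 5.59) and from 5.02 to 17.3 on Day 17 (median 12.9), and the days overlapped widely. It rose by 1.03 ± 0.22 (adjusted p = 0.0071) and was higher in 13 of 14 mice, with 0.79 in the 4-digit mice and 1.64 in the 3-digit mice (adjusted p of the difference 0.27). Ighg2b, of IgG2b, rose by 1.02 ± 0.26 (adjusted p = 0.019), from a median of 0.663 to 1.27 CPM. Its change differed between the tag series, at 0.56 in the 4-digit mice and 2.47 in the 3-digit mice (difference 1.89, adjusted p = 0.031). Ighg3, of IgG3, had a change of 0.47 (adjusted p = 0.23). Ighg2c and Ighe, of IgG2c and IgE, had no more than 30 and 16 counts in any library and were not tested. Read against 6.24% of all genes that rose, 3 of the 6 heavy constant genes tested rose and the 2 of the unswitched classes fell.

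Those 2 were Ighm and Ighd, the constant regions of IgM and IgD, which naive B cells carry. Ighm ran from 203 to 390 CPM on Day 4 (median 260) and from 161 to 293 on Day 17 (median 193). It fell by 0.48 on the log2 scale, with an SE of 0.11 and an adjusted p of 0.0088, and was lower in 13 mice. Ighd ran from 96.6 to 137 CPM (median 115) and then from 62.4 to 125 (median 73.8), and 5 of the 14 Day 17 libraries reached the range of Day 4. It fell by 0.52 (adjusted p = 0.0064). The change of Ighd was -0.70 in the 4-digit mice and -0.09 in the 3-digit mice, a difference that did not pass the test (adjusted p = 0.092).

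The switched classes (IgG, IgA and IgE) took 0.825% to 4.75% of the heavy constant counts of a library on Day 4, with a median of 1.63%, and 2.86% to 7.36% on Day 17, with a median of 5.27%. Every mouse had a higher share on Day 17. The mean difference was 3.25 percentage points ± 1.52 (SD, n = 14), with a p of 0.000122 in a two-sided exact sign-flip permutation test, the smallest that 14 mice can give (adjusted p = 0.000976 over 8 measures). Mouse D17_7228 went from 0.825% to 7.36%, the lowest and the highest share of their days, and mouse D17_7208 from 1.59% to 2.86%. The mean difference was 3.13 in the 4-digit mice and 3.55 in the 3-digit mice, where 4 mice allow no exact p under 0.125. The shares rest on 9405 to 42522 heavy constant counts per library on Day 4 and 6358 to 34140 on Day 17. Igha gave most of the switched counts, with a median share of 1.29% on Day 4 and 4.15% on Day 17, against 0.044% and 0.3% for Ighg1.

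**Figure D2:**
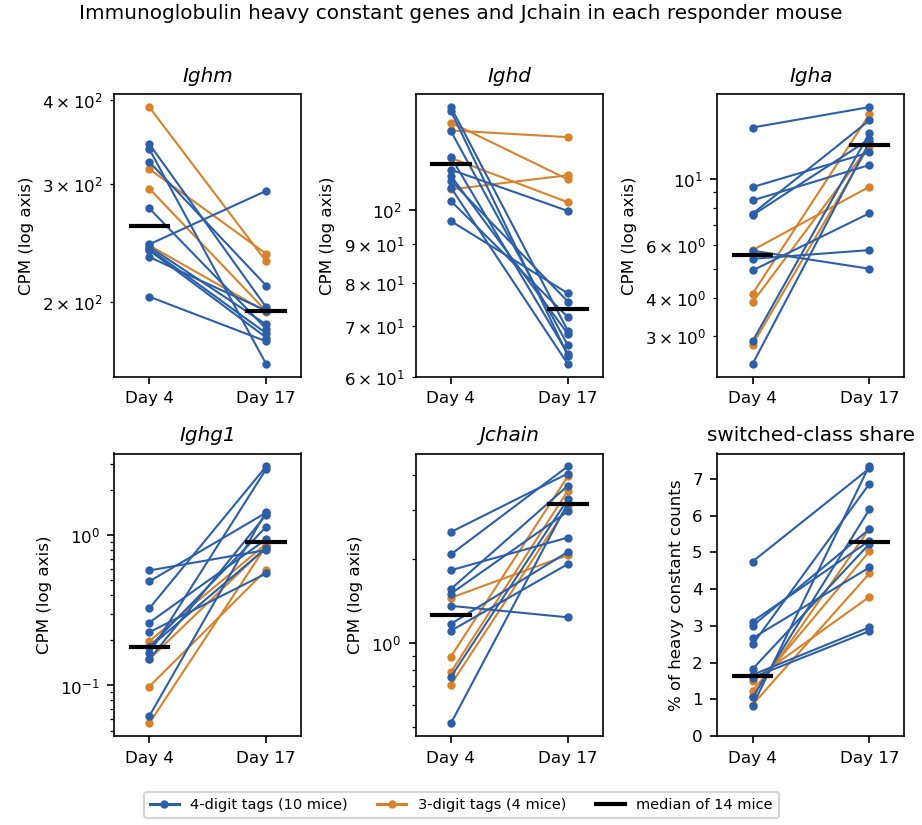
Levels of Ighm, Ighd, Igha, Ighg1 and Jchain in CPM and the switched-class share of heavy constant counts in percent, on Day 4 and Day 17. Each line joins the libraries of 1 responder mouse, coloured by tag series, and black bars are medians. The share goes up in all 14 mice, from a median of 1.63% to 5.27%, and Ighm goes from a median of 260 to 193 CPM.

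Jchain (chr5:88519809-88527891, minus strand), the joining chain of IgA and IgM, ran from 0.516 to 2.51 CPM on Day 4 (median 1.27) and from 1.24 to 4.31 on Day 17 (median 3.15). It rose by 1.21 ± 0.20 (adjusted p = 0.0026) and was higher in 13 mice, with changes of 1.05 and 1.65 in the 4-digit and 3-digit mice. Of the 19 plasma cell genes tested, Jchain and the endoplasmic reticulum chaperone Hsp90b1 rose, and 3 fell. Over all genes 6.24% rose and 8.14% fell. Sdc1, the syndecan on plasma cells and some other B cells, was lower in all 14 mice and fell by 0.76 on the log2 scale, from a median of 1.53 to 0.962 CPM. Tnfrsf13b, the receptor TACI, and the transcription factor Irf4 fell by 0.43 and 0.31, and Irf4 by 0.41 in the 4-digit mice against a change of -0.04 in the 3-digit mice. Without mouse D17_7202, 1 member rose. Xbp1, a regulator of secretion in plasma cells, had a change of 0.18 (adjusted p = 0.16). The list as a whole was level, with a median of -0.01. Tnfrsf17, the receptor BCMA of plasma cells, had at most 5 counts in a library and was not tested.

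Mature B cell genes fell in part. Of 22 tested, 10 fell and none rose, beside 8.14% of all genes that fell. With the tag series as a covariate, 5 fell. The median of the 22 genes was -0.27, beside 0.03 over all genes. Fcmr, the Fc receptor for IgM, fell most among them, by 0.93, and ran from 39.6 to 96.5 CPM on Day 4 (median 51.5) and from 22.0 to 53.1 on Day 17 (median 29.3). Its change was -0.94 in the 4-digit mice and -0.93 in the 3-digit mice. Fcer2a, the low-affinity receptor for IgE known as CD23, was lower in all 14 mice, with 35.2 to 59.1 CPM (median 42.2) on Day 4 and 20.4 to 39.0 (median 25.8) on Day 17. It fell by 0.71 ± 0.10 (SE, adjusted p = 0.0017), with changes of -0.84 and -0.39 in the 4-digit and 3-digit mice (adjusted p of the difference 0.21). Cd79a and Cd79b, the signalling chains of the B cell receptor, fell by 0.66 and 0.55, from medians of 105 and 75.4 CPM to 66.8 and 50.8.

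The fall was uneven over the list. Ms4a1, which encodes CD20, ran from 57.6 to 105 CPM on Day 4 (median 73.3) and from 49.5 to 95.4 on Day 17 (median 63.2), with a change of -0.24 (adjusted p = 0.091) and 12 mice lower. Cd22, an inhibitory coreceptor, fell by 0.29 (adjusted p = 0.034). Its change was -0.42 in the 4-digit mice and 0.04 in the 3-digit mice. The call was kept in 4 of 14 fits with 1 mouse left out, and lost with the tag series as covariate (change -0.195). The other B cell genes that fell were Ebf1, Bank1, Tnfrsf13c, Fcrla and Vpreb3. Without mouse D17_7210, 5 members fell rather than 10. In the 4-digit mice alone 14 of 22 fell, beside 5.94% of the 11748 genes tested there, and 5.35% of those genes rose. In the 3-digit mice alone no gene passed the test (0% of 11997 genes, with 2583 at an unadjusted p under 0.05), and the median of the list was -0.05.

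The B cell signature that the study derived from single cells of other mice behaved in the same direction. Of its 127 members 41 fell and none rose, beside 8.14% of all genes that fell, with a median of -0.19. Without mouse D17_7210, 26 fell, and the median was -0.28 in the 4-digit mice and -0.01 in the 3-digit mice. Aff3, a nuclear factor of lymphocytes, and Myo1e, a myosin, were its members with the smallest p beside Fcer2a and Fcmr, and fell by 0.42 and 0.51. Of the immunoglobulin variable genes, 9 of 42 heavy and 7 of 56 light chain genes fell and none rose, beside 8.14% of all genes that fell. Without mouse D17_7208, 4 heavy and 0 light chain genes fell in edgeR's test. All immunoglobulin genes together took 0.25% to 0.573% of the counts outside haemoglobin on Day 4 (median 0.331%) and 0.187% to 0.487% on Day 17 (median 0.263%). The mean difference was -0.0693 points (exact sign-flip permutation test, adjusted p = 0.285). It was -0.133 in the 4-digit mice, lower in all 10 (adjusted p = 0.0078), and 0.0889 in the 3-digit mice (adjusted p = 0.429). The effective number of Ighv genes, the inverse of the chance that a pair of counts come from the same gene, was 44.5 on Day 4 and 44.7 on Day 17 in the median mouse (adjusted p = 0.958), on 397 to 2692 counts per library.

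MHC class II genes, which present antigen on B cells, monocytes and dendritic cells, were mostly lower. Of 10 tested, 7 fell and none rose, beside 8.14% of all genes that fell. The median was -0.51, with -0.61 in the 4-digit mice and -0.21 in the 3-digit mice. The 7 were H2-Aa, H2-Ab1 and H2-Eb1 of the peptide-binding chains, the loading factors H2-DMa and H2-DMb2, H2-Oa, which modulates loading, and Cd74, the invariant chain. H2-Aa ran from 137 to 266 CPM on Day 4 (median 166) and from 89.6 to 170 on Day 17 (median 102), and was lower in all 14 mice. It fell by 0.66 ± 0.12 (SE, adjusted p = 0.0041), with -0.75 in the 4-digit mice and -0.44 in the 3-digit mice. Cd74 went from a median of 502 to 340 CPM and fell by 0.65 on the log2 scale, with a change of -0.66 and -0.64 in the series. Ciita, the regulator of class II transcription, had a change of -0.15 (adjusted p = 0.28), and H2-DMb1 one of 0.13 (adjusted p = 0.36). With any 1 mouse left out, the number that fell was 7.

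T cell genes fell in part too. Of 18 genes of the T cell receptor and its signalling, 10 fell and none rose, beside 8.14% of all genes that fell, with a median of -0.25. Only 5 fell in the 4-digit mice alone, beside 5.94% of all genes there. The median was -0.19 in the 4-digit mice and -0.39 in the 3-digit mice. Trac, the constant region of the receptor's alpha chain, ran from 8.58 to 16.8 CPM on Day 4 (median 11.6) and from 6.35 to 11.7 on Day 17 (median 8.6). It fell by 0.44 ± 0.08 (SE, adjusted p = 0.0034) and was lower in 13 mice, with changes of -0.35 and -0.68 in the 4-digit and 3-digit mice. Cd2 and Cd6, surface molecules of T cell adhesion and signalling, were lower in all 14 mice and fell by 0.42 and 0.39. Skap1, an adaptor that couples the receptor to integrins, fell by 0.48. Cd3d fell by 0.39 (adjusted p = 0.022), whereas Cd3e had a change of -0.20 (adjusted p = 0.069).

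Genes of CD4, CD8 and naive T cells gave 7 falls among 13 and no rise, beside 8.14% of all genes that fell. Their median was -0.31. Ccr7, the homing receptor of naive T cells, ran from 25.0 to 39.3 CPM on Day 4 (median 30.3) and from 16.4 to 28.5 on Day 17 (median 22.4), lower in all 14 mice. It fell by 0.48 ± 0.07 (SE, adjusted p = 0.0017). S1pr1, the receptor for leaving lymphoid organs, Tcf7, a transcription factor of naive and memory T cells, and Cd8b1 fell by 0.37, 0.31 and 0.40. Without mouse D17_7208, 4 of the list's members fell. Tcf7 and Cd8b1 were lower in all 14 mice.

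Effector genes gave no call. None of 16 cytotoxic and effector T cell genes passed the test in either direction, and the median was -0.16. With DESeq2 2 fell, and 3 fell with the tag series or with the haemoglobin share as a covariate. With 1 mouse left out, up to 2 fell and up to 1 rose. Gzmb, which encodes granzyme B, ran from 1.23 to 5.32 CPM on Day 4 (median 3.05) and from 2.03 to 5.06 on Day 17 (median 3.32), with a log2 change of 0.27 ± 0.15 (adjusted p = 0.24). The effector chemokine receptors that the study follows had changes of -0.29 (Cxcr3, adjusted p = 0.078), 0.11 (Cxcr6, adjusted p = 0.56) and -0.15 (Cx3cr1, adjusted p = 0.59). The transcription factor Tbx21 was at -0.05 and the granule protein gene Nkg7 at -0.31 (adjusted p = 0.86 and 0.061). Of 11 T and B cell genes taken from the study as 1 list, Cd22, Cd79a and Cd79b fell and none rose. Over all genes 8.14% fell. With 1 mouse left out, 2 to 5 of the 11 fell.

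The study's effector memory T cell signature had 33 of 155 members that fell and 2 that rose, beside 8.14% and 6.24% of all genes. Its median was -0.07. Without mouse D17_7208, 17 fell, and in the 4-digit mice alone 11 fell and 5 rose, beside 5.94% and 5.35% of all genes there. Those with the smallest p were Cd2, Skap1, Esyt1 and Il2rg. Esyt1, a lipid transfer protein, fell by 0.39 and Il2rg, the shared cytokine receptor chain, by 0.32. Of 17 natural killer cell receptors 1 fell, a smaller share than the 8.14% of all genes. This was Klrb1c, which encodes NK1.1, by 0.41 (adjusted p = 0.026). It kept its call in 12 of 14 fits with 1 mouse left out, and changed by -0.31 without a call in the 4-digit mice. The other receptors were not called, Ncr1 among them at -0.14 (adjusted p = 0.47). Among 13 genes of regulatory T cells and checkpoints, Cd274 rose and Tox fell, shares near the 6.24% and 8.14% of all genes. Cd274 encodes PD-L1, the ligand of the blocked receptor, and ran from 4.47 to 6.47 CPM on Day 4 (median 5.52) and from 4.85 to 11.0 on Day 17 (median 7.62). It rose by 0.45 ± 0.09 (SE, adjusted p = 0.0051) and was higher in 13 mice, with 0.57 in the 4-digit mice and 0.13 in the 3-digit mice. Tox, a factor of chronically stimulated T cells, fell by 0.36.

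The T cell receptor variable genes were thinly counted, with 126 to 835 Trbv counts per library. None of 15 tested variable genes was called. The effective number of Trbv genes had a median of 14.7 on Day 4 and 15.2 on Day 17. The mean difference was 0.698 ± 1.16 (SD), with 11 of 14 mice higher (exact sign-flip permutation test, adjusted p = 0.161). With counts thinned to the lowest Trbv total it was 0.434, with 7 mice higher. Without mouse D17_7205 it was 0.861 (adjusted p = 0.0342 in the same permutation test).

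**Figure D3:**
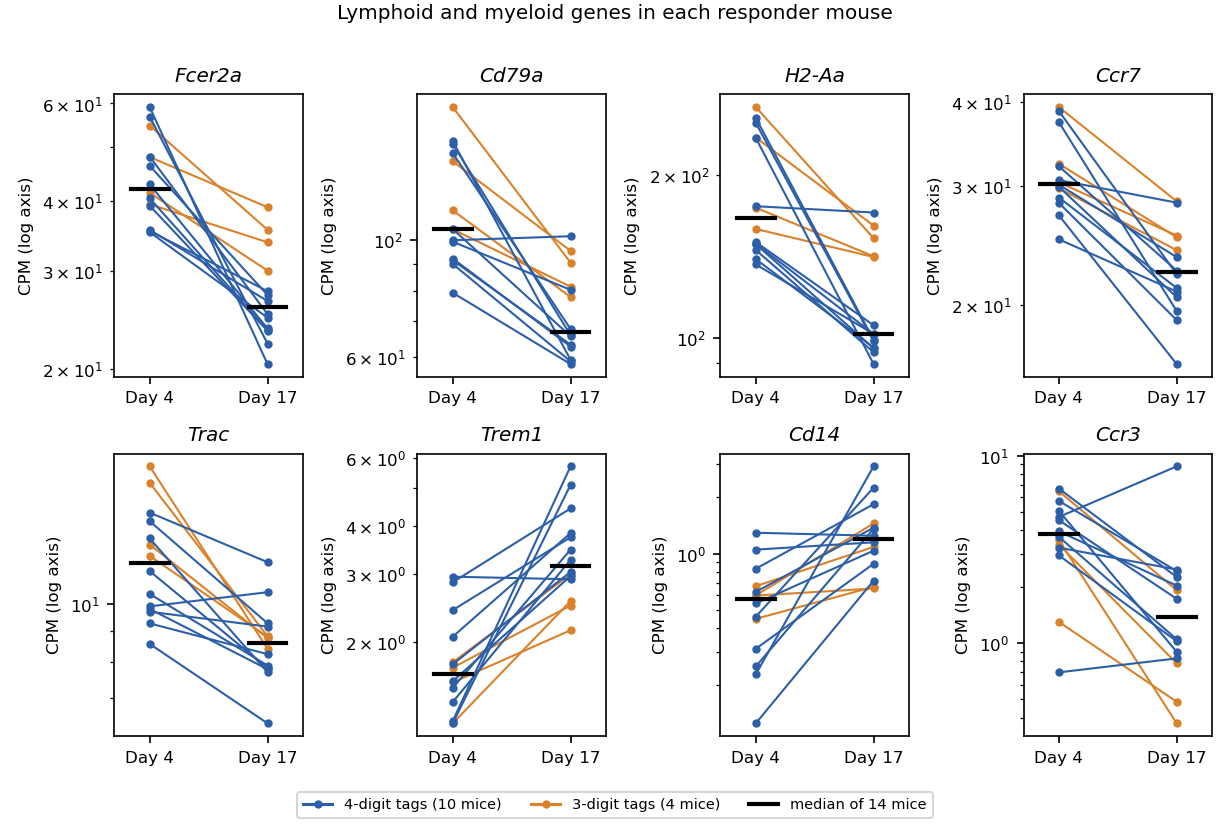
Levels in CPM of Fcer2a, Cd79a, H2-Aa, Ccr7, Trac, Trem1, Cd14 and Ccr3 on Day 4 and Day 17. Each line joins the libraries of 1 responder mouse, coloured by tag series, and black bars are medians. Fcer2a, H2-Aa and Ccr7 go down in all 14 mice, and Trem1 goes from a median of 1.65 to 3.15 CPM.

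Phagocyte genes moved up in part. Trem1 (chr17:48232768-48246924, plus strand), an activating receptor of neutrophils and monocytes, ran from 1.23 to 2.95 CPM on Day 4 (median 1.65) and from 2.15 to 5.70 on Day 17 (median 3.15). It rose by 0.94 ± 0.15 (SE, adjusted p = 0.002), was higher in 13 mice, and had changes of 1.02 and 0.70 in the 4-digit and 3-digit mice. Clec4e, a lectin that senses microbes and dead cells, Hdc, which makes histamine, and Il1r2, a decoy receptor for interleukin 1, rose by 0.84, 0.62 and 0.73. The changes of Hdc and Il1r2 were 0.82 and 0.97 in the 4-digit mice and 0.11 and 0.10 in the 3-digit mice. These were the 4 of 18 mature neutrophil genes that rose, beside 6.24% of all genes, and none fell. The median of the 18 genes was 0.47. Without mouse D17_7208, 2 of them rose. The abundant neutrophil genes S100a8, Csf3r and Cxcr2 had changes of 0.48, 0.41 and 0.41 (adjusted p = 0.25, 0.11 and 0.14), with overlapping days.

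Granule genes of immature neutrophils gave 2 rises among 6 tested, beside 6.24% of all genes that rose. Ltf, lactoferrin, which many gland epithelia also make, ran from 0.154 to 2.07 CPM on Day 4 (median 0.584) and from 0.404 to 6.82 on Day 17 (median 2.9). It rose by 2.12 ± 0.43 (SE, adjusted p = 0.0057) over all mice, but by 3.05 in the 4-digit mice and by -0.36 in the 3-digit mice, a difference of -3.40 (adjusted p = 9.02e-05). This is the split seen in Plet1 and Muc4. Ngp, a neutrophil granule protein, rose by 1.38, with 1.79 and 0.37 in the series (difference -1.43, adjusted p = 0.076). Camp, another granule gene, had 1 to 30 counts in a library and was not tested.

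Of 14 classical monocyte genes 1 was called, a share near the 6.24% of all genes that rose. This was Cd14, the coreceptor for bacterial lipopolysaccharide. It ran from 0.125 to 1.29 CPM on Day 4 (median 0.571) and from 0.653 to 2.92 on Day 17 (median 1.2), and rose by 1.25 ± 0.26 (SE, adjusted p = 0.0069) with 13 mice higher. Ly6c2 and Ccr2, which define these monocytes, had changes of -0.43 (adjusted p = 0.054) and 0.17 (adjusted p = 0.56). None of 10 non-classical monocyte genes was called. Among 17 Toll-like and Fc gamma receptor genes, Cd14, Tlr6 and Tlr8 rose, beside 6.24% of all genes. Tlr6 and Tlr8 rose by 0.37 and 0.58. With 1 mouse left out, 2 to 5 of the list rose, and Tlr6 kept its call in 6 of 14 such fits.

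Tlr9, the sensor of unmethylated DNA in B cells and plasmacytoid dendritic cells, went the other way. It ran from 6.09 to 16.1 CPM on Day 4 (median 8.48) and from 3.51 to 8.61 on Day 17 (median 5.68), lower in all 14 mice. It fell by 0.65 ± 0.09 (SE, adjusted p = 0.0014), with -0.61 in the 4-digit mice and -0.75 in the 3-digit mice.

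Some genes of eosinophils fell. Ccr3, the eotaxin receptor, ran from 0.698 to 6.68 CPM on Day 4 (median 3.82) and from 0.373 to 8.78 on Day 17 (median 1.39), lower in 12 mice, and the highest library of all was one of Day 17. It fell by 1.29 ± 0.25 (SE, adjusted p = 0.0047). Alox15, a lipoxygenase of eosinophils, and Il5ra, the interleukin 5 receptor, fell by 1.00 and 0.65. With Ccr3 these were the 3 calls among 10 genes of basophils and eosinophils, beside 8.14% of all genes that fell. The median of the list was -0.02 in the 4-digit mice and -0.91 in the 3-digit mice. Il5ra is also carried by some B cells. The basophil markers Mcpt8 and Fcer1a had at most 29 and 36 counts in a library and were not tested.

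Of 31 interferon-stimulated genes, Oas2 and Trim30a rose and none fell, with a median of 0.21, a share near the 6.24% of all genes that rose. Up to 6 rose with 1 mouse left out. Oas2, which senses double-stranded RNA, ran from 1.01 to 5.00 CPM on Day 4 (median 2.66) and from 1.79 to 10.2 on Day 17 (median 6.07). It rose by 1.03 ± 0.17 (SE, adjusted p = 0.0027) and was higher in 13 mice, by 0.95 in the 4-digit mice and 1.22 in the 3-digit mice. Trim30a, a regulator of innate signalling, rose by 0.30. Isg15, the interferon-induced modifier, had a change of 0.56 (adjusted p = 0.13).

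Heat shock chaperones were the list with the largest share of members whose change differed between the tag series. When proteins unfold, heat shock factor binds repeats of GAA and TTC in the promoters of chaperone genes and raises their transcription. The promoters of Hspa1b, Hspd1 and Chordc1, which rose, are shown because they differ in these repeats, with 250 bases before and 50 after the start from RefSeq on GRCm38.p6. Capitals mark the bases covered by GAANNTTC, which is its own reverse complement, and by a longer form that contains it, on either strand, in which GAA follows GAANNTTC after 2 bases. The promoters lie at chr17:34959189-34959488 (Hspa1b, minus strand), chr1:55087883-55088182 (Hspd1, minus strand) and chr9:18292017-18292316 (Chordc1, plus strand).
Hspa1b: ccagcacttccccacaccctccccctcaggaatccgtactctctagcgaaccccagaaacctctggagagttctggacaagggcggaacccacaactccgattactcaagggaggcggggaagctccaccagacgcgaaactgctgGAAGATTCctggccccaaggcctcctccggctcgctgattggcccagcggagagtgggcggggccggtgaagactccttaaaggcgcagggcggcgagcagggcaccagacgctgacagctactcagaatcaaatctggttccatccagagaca
Hspd1: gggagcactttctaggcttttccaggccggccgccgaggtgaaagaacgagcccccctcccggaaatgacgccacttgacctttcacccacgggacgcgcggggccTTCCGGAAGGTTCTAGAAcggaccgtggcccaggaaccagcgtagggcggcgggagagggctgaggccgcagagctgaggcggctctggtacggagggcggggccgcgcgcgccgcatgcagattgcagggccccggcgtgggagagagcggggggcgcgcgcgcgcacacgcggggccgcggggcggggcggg
Chordc1: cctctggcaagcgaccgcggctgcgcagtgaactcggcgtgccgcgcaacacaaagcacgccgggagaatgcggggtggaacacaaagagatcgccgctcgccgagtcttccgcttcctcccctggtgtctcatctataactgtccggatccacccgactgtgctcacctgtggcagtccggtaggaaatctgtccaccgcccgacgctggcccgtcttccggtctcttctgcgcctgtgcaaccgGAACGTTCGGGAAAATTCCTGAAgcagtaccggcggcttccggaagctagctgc

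Of 15 chaperone genes matched in the promoter table, 9 hold GAANNTTC, against 2582 of 32841 promoters of the same length (7.86%), and 4 hold the longer form, against 198 (0.603%). Of the 7 that rose, 5 hold the shorter motif and 3 the longer form (Hsph1, Hspd1 and Chordc1), while Dnaja1 and Cacybp hold neither in this window. A match describes the letters alone.

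Hspa1b encodes the inducible HSP70 shown first, and ran from 0.152 to 0.521 CPM on Day 4 (median 0.266) and from 0.114 to 3.20 on Day 17 (median 1.49). In the 4-digit mice the lowest Day 17 library was at 0.986 CPM, and in the 3-digit mice the Day 17 values were 0.528, 0.26, 0.114 and 0.198. It rose by 1.96 ± 0.34 (SE, adjusted p = 0.0033) over all mice, with 2.53 in the 4-digit mice and -0.19 in the 3-digit mice (difference -2.73, adjusted p = 0.0097). Hspa1a, its near-identical neighbour, rose by 1.46, with a difference of -3.52 between the series (adjusted p = 0.02), and reads could be shared between them, so the level of each is uncertain. Dnaja1, an HSP40 cochaperone without the motif, ran from 9.91 to 22.0 CPM on Day 4 (median 13.7) and from 12.4 to 34.7 on Day 17 (median 27.0). It rose by 0.80 ± 0.13 (adjusted p = 0.0026), by 1.02 in the 4-digit mice and 0.24 in the 3-digit mice (difference -0.79, adjusted p = 0.063).

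Chordc1, an HSP90 cochaperone with 2 matches at its start, rose by 0.60, from a median of 5.90 to 9.77 CPM, by 0.78 and 0.11 in the series (difference -0.70, adjusted p = 0.05). Cacybp, a partner of a ubiquitin ligase, Hsph1, an exchange factor of HSP70, and Hspd1, the mitochondrial chaperonin, rose by 0.48, 0.72 and 0.28 over all mice. Hsph1 changed by 1.15 in the 4-digit mice and -0.43 in the 3-digit mice (difference -1.60, adjusted p = 0.0073), and Hspd1 by 0.39 and -0.01 (adjusted p = 0.093). In all, 7 of 17 chaperones rose, beside 6.24% of all genes, none fell, and the median was 0.28. Without mouse D17_7208, 4 rose. In the 4-digit mice alone 16 of 17 rose, beside 5.35% of all genes there, with a median of 0.57. In the 3-digit mice alone the median was -0.31 with no gene called. The change was lower in the 3-digit than in the 4-digit mice for 12 of the 17, beside 275 of 11850 genes whose change differed between the series (2.32%). Hsp90aa1, the inducible HSP90, had a change of 0.35 (adjusted p = 0.08) over all mice, 0.63 in the 4-digit mice and -0.35 in the 3-digit mice. Platelet genes came next by share, with 7 of 20 lower in the 3-digit mice. The median difference was larger for platelet (-1.53), red cell (-1.42), granule (-1.39), haemoglobin (-1.36), epithelial (-1.23) and basophil and eosinophil genes (-1.02) than for chaperones (-0.999).

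**Figure D4:**
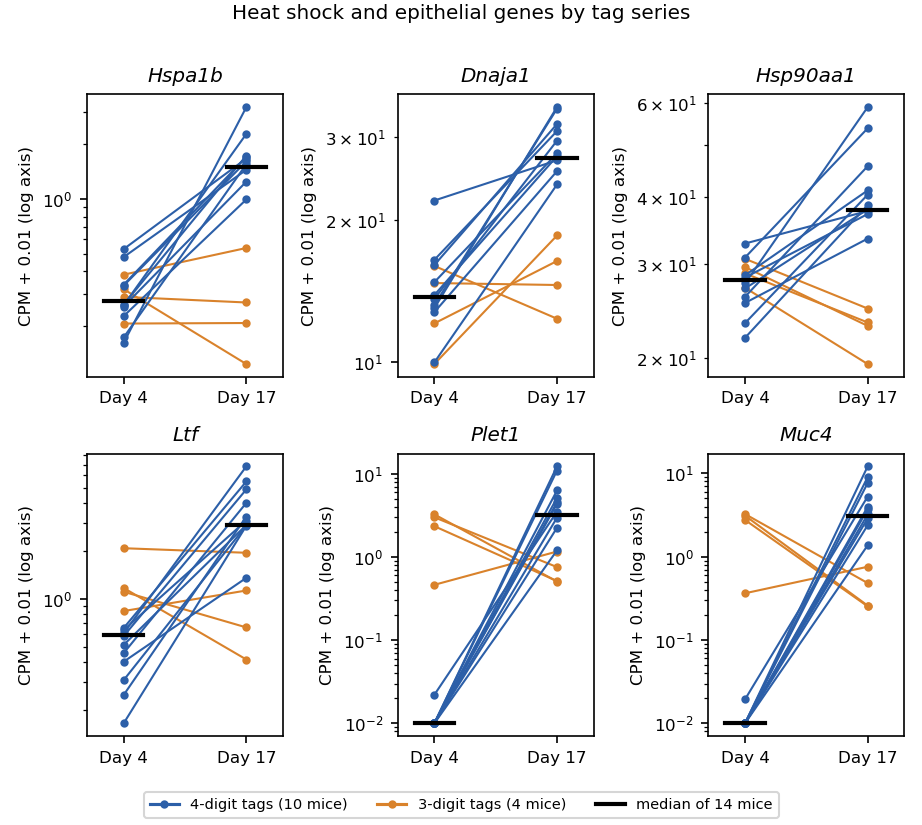
Levels in CPM plus 0.01, on a log axis, of Hspa1b, Dnaja1, Hsp90aa1, Ltf, Plet1 and Muc4 on Day 4 and Day 17. Each line joins the libraries of 1 responder mouse, coloured by tag series. Hspa1b, Plet1 and Muc4 go up in all 10 mice with 4-digit tags, and Plet1 had at most 1 count in these mice on Day 4.

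Among 24 immediate early genes, which cells induce within minutes of a signal, Ier3, Tnfaip3, Rgs1 and Klf6 rose and Egr3 fell. Over all genes 6.24% rose and 8.14% fell, and the 1 fall of 24 is a smaller share. Without mouse D17_7208, 2 rose, and without mouse D17_7210 none fell. Ier3, a survival factor, was higher in all 14 mice and ran from 0.0924 to 0.651 CPM on Day 4 (median 0.251) and from 0.404 to 1.47 on Day 17 (median 0.641), with a change of 1.42 ± 0.27 (SE, adjusted p = 0.0047). Tnfaip3, a brake on NF-kB signalling, was also higher in all 14 and rose by 0.39. Rgs1, a regulator of chemokine receptors, rose by 0.81, and Egr3, a target of antigen receptor signals, fell by 0.42. Fos and Jun had changes of 0.12 (adjusted p = 0.86) and 0.44 (adjusted p = 0.055).

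Of 15 amino acid and ATF4 stress genes, 5 rose and 2 fell, beside 6.24% and 8.14% of all genes. Without mouse D17_322 3 rose, and without mouse D17_7208 1 fell. In the 4-digit mice alone 4 rose and none fell, beside 5.35% and 5.94% of all genes there. Asns, asparagine synthetase, rose by 1.3, and Atf5, a transcription factor of this response, by 0.75. In the 4-digit mice they changed by 1.69 and 1.03 and in the 3-digit mice by 0.21 and 0.00. Chac1, which degrades glutathione, rose by 1.5 over all mice, with 2.29 in the 4-digit mice and -0.72 in the 3-digit mice (difference -3.00, adjusted p = 0.0075). Atf4 itself and Ddit4 rose by 0.31 and 0.43. Phgdh and Psat1, which make serine, fell by 0.28 and 0.31.

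Splicing genes went both ways. Of 42, 8 rose and 12 fell, with a median of -0.05, beside 6.24% and 8.14% of all genes. Without mouse D17_7208 5 rose, and in the 4-digit mice alone 3 rose and 10 fell, beside 5.35% and 5.94% of all genes there. Srsf1, Srsf2, Srsf6, Srsf7, Tra2a and Tra2b of the serine and arginine rich family, Sfpq and Snrnp70 rose, by 0.25 to 0.78. Sf3a1, Sf3a2, Sf3a3, Sf3b2, Sf3b3, Sf3b4, Snrpa, Snrnp200, Prpf6, Prpf8, Prpf19 and Prpf31, which are core parts of the spliceosome, fell. Prpf8, at its catalytic centre, ran from 41.1 to 56.5 CPM on Day 4 (median 47.8) and from 32.6 to 45.3 on Day 17 (median 36.0), lower in all 14 mice, and fell by 0.40 ± 0.06 (SE, adjusted p = 0.0017). Its change was -0.39 in the 4-digit mice and -0.42 in the 3-digit mice. Sf3b4, Sf3b3 and Snrnp200 fell by 0.44, 0.34 and 0.39.

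Of 84 cytosolic ribosomal protein genes, 19 fell and none rose, beside 8.14% of all genes that fell, with a median of -0.30. Without mouse D17_7208, 10 fell, and with the haemoglobin share as a covariate 51 fell. In the 4-digit mice alone 2 fell, beside 5.94% of all genes there. Rpl3, of the large subunit, was lower in all 14 mice and fell by 0.61. Rpsa, of the small subunit, ran from 162 to 452 CPM on Day 4 (median 211) and from 145 to 230 on Day 17 (median 158), with the highest Day 17 library near the Day 4 median, and fell by 0.62 (adjusted p = 0.013). Rpl6 fell by 0.54. Ribosomal protein genes have many near-identical pseudogenes, so the split of reads among copies is uncertain. Of 76 genes of the respiratory chain and ATP synthase, 9 fell and none rose, a share near the 8.14% of all genes, with a median of -0.06, and 5 fell in the 4-digit mice alone. Ndufa10 and Sdha, subunits of complexes I and II, were lower in all 14 mice, by 0.53 and 0.27. Ndufv1 and Ndufa9 of complex I fell by 0.37 and 0.34. Of 78 mitochondrial ribosomal proteins, Mrpl33 and Mrps24 rose and Mrps27, Mrpl43 and Mrpl45 fell, smaller shares than the 6.24% and 8.14% of all genes.

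Proliferation genes gave 2 falls among 25, the replication helicase subunits Mcm3 and Mcm5, by 0.23 and 0.31, and no rise, with a median of -0.10. That is near the 8.14% of all genes that fell, and without mouse D17_322 none fell. Red cell genes gave 1 rise among 24, a smaller share than the 6.24% of all genes that rose. It was Tfrc, the transferrin receptor of young red cells and of dividing cells. Tfrc went from a median of 4.00 to 6.06 CPM and rose by 0.55 (adjusted p = 0.015). The median of the red cell list was 0.57 in the 4-digit mice and -0.85 in the 3-digit mice. None of 7 haemoglobin genes and none of 20 platelet genes was called. The platelet list had a median of 0.12, and 15 of its 20 members had a change above 0, with the highest at 0.78 (Gp1bb, adjusted p = 0.065). In the 4-digit mice alone the list median was 0.54 and 4 rose, beside 5.35% of all genes there. In the 3-digit mice alone the list median was -0.98 with no gene called. Gp1bb changed by 1.22 and -0.32 in the 4-digit and 3-digit mice. Pf4 and Ppbp, chemokines of platelets, had changes of -0.08 and -0.26 (adjusted p = 0.84 and 0.52) over all mice. In the 4-digit mice they were at 0.26 and 0.17 and in the 3-digit mice at -0.91 and -1.34, and the difference of Ppbp was -1.53 (adjusted p = 0.0501), just short of a call.

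Among the genes with the smallest p outside these lists, some rose in all 14 mice. Ahsa2, a relative of the HSP90 activator, ran from 1.25 to 2.52 CPM on Day 4 (median 1.93) and from 1.75 to 5.05 on Day 17 (median 3.71) and rose by 0.81 ± 0.11 (SE, adjusted p = 0.0014), with 0.97 and 0.35 in the series. Gtpbp2, a ribosome rescue factor, Cdk16, a kinase of the cyclin-dependent family, Cpeb2, a regulator of translation, and Rnpc3, a protein of the minor spliceosome, rose by 0.41, 0.48, 0.68 and 0.48. The change of Rnpc3 was 0.43 and 0.62 in the 4-digit and 3-digit mice, and the other changes differed by less than 0.05 between the series. Plk2, a stress-induced kinase, rose by 1.3 with 13 mice higher, from a median of 0.381 to 0.804 CPM, and changed by 1.55 and 0.55 in the series. Mat2a, which makes S-adenosylmethionine, and Cybc1, a chaperone of the phagocyte oxidase, rose by 0.56 and 0.33.

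The genes that fell with the smallest p were lower in 13 or 14 of the mice. Fto, an RNA demethylase, ran from 3.65 to 5.61 CPM on Day 4 (median 4.55) and from 2.49 to 4.03 on Day 17 (median 3.23), and fell by 0.45 ± 0.06 (SE, adjusted p = 0.0014) with 14 mice lower. Nup214, of the nuclear pore, Nol6, of ribosome assembly, Parvg, an actin-linked protein of leukocytes, Tbc1d5, of endosome traffic, and Angel1 were lower in all 14 mice as well, by 0.40, 0.46, 0.38, 0.49 and 0.66. Cplx2, a regulator of vesicle release, and Sgsh, a lysosomal sulfatase, were lower in 13 and fell by 0.96 and 0.63. In the 3-digit mice the changes of Fto, Nup214, Parvg and Tbc1d5 were -0.42, -0.42, -0.39 and -0.49. Angel1, Sgsh and Nol6 changed by -0.77, -0.74 and -0.52 in the 4-digit mice and by -0.38, -0.36 and -0.32 in the 3-digit mice.

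The same change was fitted in the 28 non-responder mice. There 2563 of 12396 genes rose (20.7%) and 2896 fell (23.4%), in 28 mice against 14. The difference between the response groups was then tested for each gene, and no gene passed (0% of 13132). In edgeR's test 846 genes had an unadjusted p under 0.05 (6.44%), and the smallest adjusted p was 0.155. Of the 28 non-responders 22 have 3-digit tags, against 4 of the 14 responders, so response and tag series are largely confounded. Within the 4-digit mice 398 of 12800 genes had an unadjusted p under 0.05 and within the 3-digit mice 1579 of 13780, with none called in either.

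The values of the groups are given side by side. Ighg1 changed by 2.43 in responders and 2.44 in non-responders, with a difference of -0.03 ± 0.28 (SE). Jchain changed by 1.21 and 1.13, Igha by 1.03 and 0.92, Trem1 by 0.94 and 0.92 and Oas2 by 1.03 and 1.04. Fcer2a changed by -0.71 and -0.50, a difference of -0.23 ± 0.10 (SE, unadjusted p 0.023 and adjusted p = 0.68 in edgeR's test), and Trac by -0.44 and -0.51. Mature B cell genes gave 19 falls of 22 in non-responders, with a median of -0.25 beside -0.27 in responders. T cell receptor genes gave 17 of 18 there with -0.40, and MHC class II genes 7 of 10 with -0.25 beside -0.51 in responders. In non-responders 23.4% of all genes fell. Of the differences between the groups, 6.44% of all genes had an unadjusted p under 0.05 in edgeR's test. Beside that stood 8 of 17 chaperones, 4 of 8 granule genes, 6 of 14 classical monocyte genes and 4 of 10 class II genes. It was 6 of 20 for T cell receptor variable genes and 4 of 18 for T cell receptor genes, and none was called. These lists were chosen after their values were seen. Epithelial genes had 3 of 8 and dendritic cell genes 3 of 10, left out of that choice. At the other end, 0 of 84 cytosolic ribosomal protein, 0 of 76 respiratory chain and 0 of 20 platelet genes had such a p.

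Some gaps between the groups were wider, and none passed the test. Ltf changed by 2.12 in responders and -0.26 in non-responders, a difference of 2.36 ± 0.62 (SE, adjusted p = 0.21 in edgeR's test). Within the tag series the groups were less far apart. Its median counts, not scaled for depth, went from 23 to 87 in 4-digit and from 145 to 44 in 3-digit non-responders. In responders they went from 28 to 148.5 and from 38 to 61. Plk2 changed by 1.3 and 0.12 (difference 1.16 ± 0.28, adjusted p = 0.21), Ahsa2 by 0.81 and 0.28 (0.51 ± 0.12, adjusted p = 0.21) and Chordc1 by 0.60 and 0.12 (0.46 ± 0.12, adjusted p = 0.21). Hspa1b changed by 1.96 and 1.28 (0.66 ± 0.39, adjusted p = 0.84 in edgeR's test). Its median counts in non-responders went from 19 to 79.5 in the 4-digit mice and from 22 to 23 in the 3-digit mice. The part of the tag series in these gaps was not tested. Mature neutrophil genes gave 15 rises of 18 in non-responders, red cell genes 21 of 24 and interferon-stimulated genes 25 of 32. Over all genes 20.7% rose there. These list counts are higher than in responders, with more mice in the test. Chaperones gave 3 rises of 17 in non-responders, a share near the 20.7% of all genes, with a median of 0.09. Cd274 changed by 0.45 and 0.15 (0.28 ± 0.12, adjusted p = 0.65).

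The days around Day 17 were fitted with all responder libraries of the 4 days in 1 model, in which the 3 comparisons share the Day 4 libraries. On Day 9 1988 of 12560 genes rose (15.8%) and 1864 fell (14.8%), on Day 17 1688 rose (13.4%) and 1729 fell (13.8%), and on Day 24 1126 rose (8.96%) and 1363 fell (10.9%). Ighg1 was 1.45, 2.41 and 2.28 above Day 4 on the log2 scale on Days 9, 17 and 24, and Jchain 0.72, 1.25 and 1.13. Trem1 was at 0.79, 0.95 and 0.02, Oas2 at 1.02, 1.06 and -0.16, and Fcer2a at -0.46, -0.71 and -0.10. Ccr3 was at 0.00 on Day 9 and 0.76 on Day 24 (adjusted p = 0.053), on either side of its fall on Day 17. Ltf was at 2.85, 2.42 and 2.5 over all responders, but the tag series took different courses. Its median counts on Days 4, 9, 17 and 24 were 28, 60, 148.5 and 217 in the 4-digit mice and 38, 1192, 61 and 67 in the 3-digit mice.

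By lists, MHC class II genes had medians of -0.38, -0.52 and 0.03 on Days 9, 17 and 24, with 7, 7 and 0 members that fell. Mature B cell genes had -0.30, -0.27 and -0.03, and T cell receptor genes -0.50, -0.28 and -0.27. Mature neutrophil genes were at 0.60, 0.55 and -0.31, and classical monocyte genes at 0.70, 0.04 and -0.34, with 11, 3 and 0 members that rose. Interferon-stimulated genes had medians of 0.26, 0.16 and -0.32, with 15 of 32 below Day 4 on Day 24. Of 17 chaperones, 7 fell on Day 9 (median -0.18) and 6 on Day 24 (median -0.23). In this fit, which pools the tag series, 10 of 17 rose on Day 17, with a median of 0.29. The Day 17 change was lower in the 3-digit than in the 4-digit mice for 12 of the 17. Of 84 cytosolic ribosomal protein genes, 67, 57 and 67 fell on the 3 days, with medians of -0.49, -0.35 and -0.36.

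**Figure D5:**
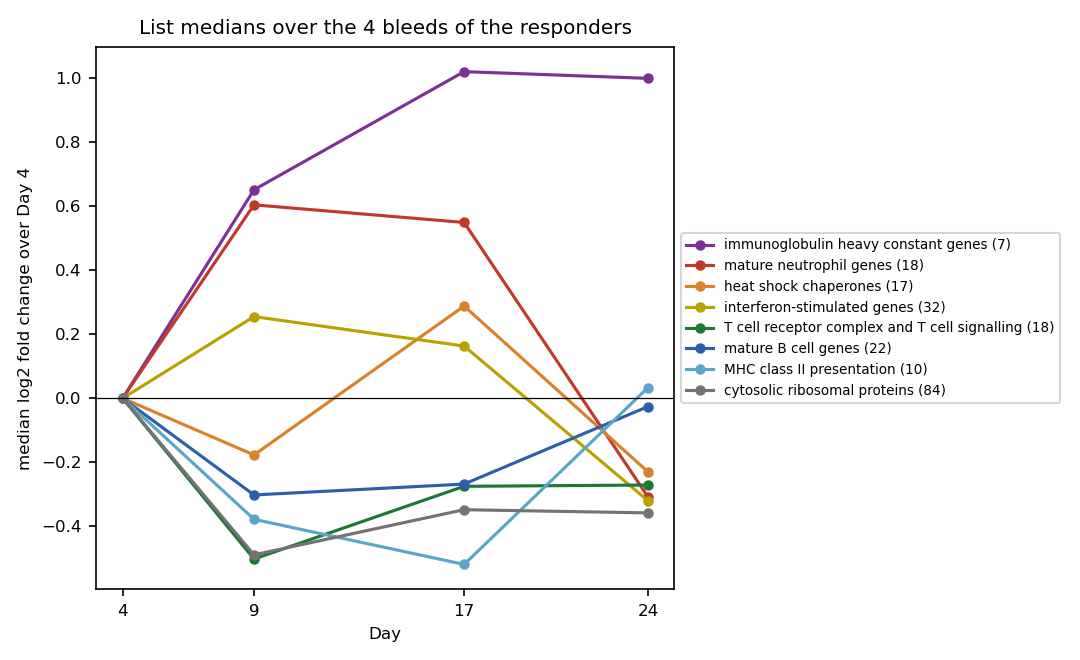
Median log2 change from Day 4 of 8 gene lists on Days 9, 17 and 24 in the responders, from the fit of all 4 days, with Day 4 at 0. The horizontal axis is the day and each line is a list. The chaperone list is above 0 on Day 17 alone among the 3 days, at 0.29, and the MHC class II list is lowest on Day 17 at -0.52. The lines pool both tag series, and the Day 17 change was lower in the 3-digit mice for 12 of 17 chaperones.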

How the data were processed

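RNA of whole blood, taken from behind the eye into TRIzol, was made into polyA libraries with the SMARTer mRNA-Seq kit. The submitters' processing notes name STAR and mm10, and the tool that counted is not given in the sources used here. The authors deposited estimated counts per gene, which need not be whole and were rounded for the tests, and TPM values per gene symbol, haemoglobin included. Gene identifiers match GENCODE M21 (GRCm38), which gave the positions.

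Counts of the 28 libraries were tested with edgeR 4.0.16 in R 4.3.3 (TMM, filterByExpr, glmQLFit, glmQLFTest), with the mouse as block and Benjamini-Hochberg adjustment over all genes tested, at 0.05. The 2 libraries of a tag were taken to come from the same animal, which rests on the repeated tag in the labels alone. Deviations of the same mouse correlated with a mean r of -0.0302 (lowest -0.442, highest 0.625), against 0.00283 between different mice. In 2 of 14 mice the Day 4 library correlated best with its own Day 17 library. The same test gave the non-responders, the difference of changes, the 4 days and the difference between the tag series. The 8 library measures were compared with two-sided exact sign-flip permutation tests. The script was tested on simulated data.

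Named genes were the 12 with the smallest p in each direction, leaving out predicted models, pseudogenes and variable segments, up to 4 called members with the smallest p of each of 40 lists, the listed cell markers, the heavy constant genes and 11 T and B cell genes taken from the study. Other list members are named beside their list. The mice, lists and tests were chosen with earlier results of these data known. Alternatives used limma 3.58.1 on log2 TPM with a pseudocount of 0.1 or 1, DESeq2 1.42.0, other filters and scalings, each tag series alone and each mouse left out. Single-cell libraries were not analysed here. Total counts were 26058944 to 63000426 per library. Genes under about 1 CPM rest on few counts in some libraries (Hspa1b on 5 to 27 on Day 4), where counting error is not small. A few results are not reported here.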

Additional observations from a re-analysis of the deposited data

Results flagged for a closer look

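Within the responders, the change from Day 4 to Day 17 differed between mice with 3-digit and 4-digit tags in 275 of 11850 genes by the test of that difference, 224 lower and 51 higher in the 3-digit mice. Among the chaperones of the heat shock list it was lower in the 3-digit mice for 12 of 17. On the log2 scale, the change in 3-digit mice minus that in 4-digit mice was -3.40 for Ltf, -2.73 for Hspa1b, -0.696 for Chordc1 and -3.00 for Chac1, and 1.89 for Ighg2b. Plet1 and Muc4 had the smallest p for this difference. The part of epithelial transcripts in it was not tested.

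The Day 17 library of mouse D17_7203, whose labels disagree, was left out of the comparisons, except where it was added as an alternative. The switched classes took 5.08% of its 18315 heavy constant counts, above the 4.75% of the highest responder library of Day 4. On its own day, Day 17, it lay within the responder range of 2.86% to 7.36%. This share does not decide between its labels. The share in the other libraries of this mouse was 3.3% on Day 4, 5.86% on Day 9 and 5.34% on Day 24.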

How the results depend on the processing

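Called genes numbered 1703. The count was 3417 with the 4 days in 1 fit, 2602 with the haemoglobin share as a covariate (chosen after seeing the data), 339 with a 1.5-fold minimum, 48 and 25 with limma on log2 TPM with a pseudocount of 0.1 and 1, 0 with a Wilcoxon signed-rank test on TPM (533 at an unadjusted p under 0.05), 0 in the 3-digit mice alone and 937 to 1987 with 1 mouse left out. Without the replicate block, 1852 genes were called in the same 28 libraries and 58 in place of 0 for the difference between response groups. DESeq2 called 2350, RLE scaling 1792, haemoglobin removal 1762 (37.8% of them rising, against 43.4%), a filter of 10 counts in every library 1453, of 1 count in any 1354, the tag series as covariate 1881 (50.6% rising) and mouse D17_7203 added 1884. TPM moved the median of all genes to 0.116 with a pseudocount of 0.1, and 91.7% and 92% of the limma calls rose. Of 102 called named genes, 102 kept their call with DESeq2, 100 without the block, 82 in the 4-digit mice alone, 7 with limma at a pseudocount of 0.1 and 89 without mouse D17_7208. The switched-class share differed by 3.55 points in the 3-digit mice, too few to pass. The cause of these shifts was not tested, beyond the smaller number of mice.

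Signs turned in the 3-digit mice alone for Ltf (-0.355), Hspa1b (-0.189), Atf5 (-0.00321), Chac1 (-0.718), Hsph1 (-0.43) and Hspd1 (-0.0077). Those of Plet1 (-1.35), Muc4 (-2.10) and Cd22 (0.0362) turned there too. Among genes without a call, signs turned there for Krt13 (-2.45), Hsp90aa1 (-0.349), Xbp1 (-0.00812), Cxcr6 (-0.149), Gzmb (-0.0484) and Gp1bb (-0.322). In the 4-digit mice alone they turned for Pf4 (0.256), Ppbp (0.166) and Tbx21 (0.0681). On TPM, Cx3cr1 was at 0.00426 and 0.0141 and Tbx21 at 0.0638 and 0.0168. The haemoglobin share turned to 1.61 points, the mitochondrial share to 0.0676 and the effective number of Ighv genes to -1.46 in the 4-digit mice. The last was -0.814 on TPM and -0.0239 after thinning. In the 3-digit mice the difference of the counts outside haemoglobin turned positive (0.31 in counts-in-millions) and the immunoglobulin share to 0.0889 points. With 1 mouse left out, and no call in any case, Pf4 ran from -0.166 to 0.0414, Tbx21 from -0.125 to 0.0274, the haemoglobin share from -0.783 to 0.674 points and the effective number of Ighv genes from -0.405 to 0.966.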

Other observations

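Among complement genes, C5ar2, a receptor for C5a, ran from 0.448 to 1.86 CPM on Day 4 (median 0.954). On Day 17 it ran from 0.622 to 2.54 (median 1.61). It rose by 0.56 (edgeR, adjusted p = 0.047) and kept its call in 4 of 14 fits with 1 mouse left out. The call was lost in the 4-digit mice alone, with the tag series as covariate and without the replicate block, at changes of 0.643, 0.465 and 0.504. Of 13 MHC class I and immunoproteasome genes 2 fell, beside 8.14% of all genes, and none rose. Tapbp, which tethers class I molecules to the peptide transporter, was lower in all 14 mice and fell by 0.30. Psme1, a proteasome activator, fell by 0.29 and kept its call in 8 of 14 fits with 1 mouse left out. B2m and H2-K1, which form class I molecules, had changes of -0.09 and 0.12 (adjusted p = 0.77 and 0.33). Class I thus had 2 falls of 13 where class II had 7 of 10, and the difference between the lists was not tested.

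Of 9 dendritic cell genes tested, Cd209a, a lectin of conventional dendritic cells and some monocytes, fell by 0.55, from a median of 0.922 to 0.671 CPM. That is 1 fall of 9, beside 8.14% of all genes. None of 6 chemokine ligand genes was called, and Ccl5, made by effector T cells, had a change of -0.21 (adjusted p = 0.34). Of the listed epithelial genes, 4 had enough counts to be tested, and Sfn, which encodes 14-3-3 sigma, fell by 0.24. Of 9 muscle and liver genes 1 was tested and it was not called.

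The effective number of Igkv genes had a median of 34.7 on Day 4 and 35.0 on Day 17 (exact sign-flip permutation test, adjusted p = 0.489). The haemoglobin share of the counts differed by -0.0759 points (adjusted p = 0.958) and the mitochondrially encoded share of counts outside haemoglobin by -0.328 points (adjusted p = 0.489).

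Ddx3y, Eif2s3y, Kdm5d and Uty, which lie on the Y chromosome, had 0 counts in all 28 libraries, and Xist, made from the inactive X chromosome, had 1022 to 15718. The labels do not give the sex of the mice, and the study's methods say that mice of both sexes were used. These counts gave no sign of a male among the responder mice analysed here.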
